A study of Homo sapiens with 3 samples.

Results

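The genes described are 8 transcription factors and structural genes that mark the mesenchymal side of the epithelial-mesenchymal transition (EMT): ZEB1, ZEB2, SNAI1, SNAI2, TWIST1, CDH2, VIM and FN1. They were chosen by name and looked up by Ensembl ID and symbol, and 7 of the 8 were among the 23379 genes listed. TWIST1 had no entry and was counted as 0 by that rule. RNA had been sequenced from cells labelled DU145, an established human line from a metastasis of prostate carcinoma, in 3 libraries with 1 in each group. L597R cells were transfected with a plasmid for BRAF carrying the L597R exchange, WT cells overexpressed wild-type BRAF, and P-Enter cells were the negative control. The labels do not say whether the plasmids were kept by selection, for how long the cells carried them or whether a line was a clone, and no promoter is named.

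EMT is the change by which epithelial cells lose their junctions and polarity and take on a motile, matrix-producing form. ZEB1, ZEB2, SNAI1, SNAI2 and TWIST1 are DNA-binding factors that repress epithelial genes such as CDH1, which encodes E-cadherin; the ZEB and SNAI factors are zinc-finger proteins that bind E-box motifs, and TWIST1 is a basic helix-loop-helix protein. CDH2 encodes N-cadherin, VIM the intermediate filament protein vimentin and FN1 the matrix glycoprotein fibronectin. The ZEB factors and the miR-200 family of small RNAs hold each other down in many epithelial cells. BRAF is the kinase between RAS and MEK. ERK activity downstream of it is known to change the levels of several EMT factors in melanoma and other cells.

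Sequences of the miR-200 family are shown because ZEB1 and ZEB2 are its best-known targets and held the most seed matches of the 8 members. The mature RNAs below are from RefSeq (GRCh38.p14), with the seed, bases 2 to 8, in capitals. The first 3 share one seed and the last 2 share the other.
hsa-miR-200b-3p: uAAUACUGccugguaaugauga
hsa-miR-200c-3p: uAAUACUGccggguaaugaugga
hsa-miR-429: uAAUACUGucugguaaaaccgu
hsa-miR-200a-3p: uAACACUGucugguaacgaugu
hsa-miR-141-3p: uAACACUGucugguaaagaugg

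The complements of these seeds, CAGTATT and CAGTGTT, were searched on the transcript strand in the 3′ untranslated regions of 18928 protein-coding genes of GENCODE 29, using 1 transcript per gene. ZEB1 held 5 copies of the first and 3 of the second in 1938 bases, and ZEB2 held 5 and 4 in 5370 bases. As many matches as in ZEB1 were found in 0.0476% of the genes and as many as in ZEB2 in 0.0264%, while 26.1% held at least 1. These counts grow with the length searched. Per kilobase ZEB1 held 4.13 matches, FN1 1.82 and ZEB2 1.68. Among the 8759 genes with at least 1000 bases searched, 0.0114% reached the density of ZEB1, 0.548% that of FN1 and 0.879% that of ZEB2, so by density ZEB2 did not stand above FN1. All these shares, by number and by density, include the named gene itself, and the share at the density of ZEB1 is ZEB1 alone. FN1 held 2 matches in all, SNAI2 held 1, and SNAI1, TWIST1, CDH2 and VIM held 0. The first match of each kind in ZEB1 lay on the plus strand of GRCh38 at chr10:31527625-31527647 and chr10:31528038-31528060. Those of ZEB2 lay on the minus strand at chr2:144389045-144389067 and chr2:144389229-144389251. They are printed with the match in capitals.
ZEB1, CAGTATT: tatcttatCAGTATTatcactct
ZEB1, CAGTGTT: atcagaatCAGTGTTtgtgattg
ZEB2, CAGTATT: ccatacatCAGTATTtttattat
ZEB2, CAGTGTT: attttgtaCAGTGTTaaggccta

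A letter match is a description and not a working site, and mature miRNAs were not analysed here.

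The start regions of ZEB1 and ZEB2 are shown because these were the 2 members whose levels differed most between libraries. RefSeq windows (GRCh38.p14) from 250 bases before to 50 after a start were found for 5 of the 8 members: ZEB1, ZEB2, CDH2, VIM and FN1. SNAI1, SNAI2 and TWIST1 are named only. The E-box bound by the ZEB and SNAI factors (CACCTG, either strand) and the AP-1 motif bound by the FOS and JUN factors downstream of ERK (TGANTCA, which reads the same on both strands) were searched, and no match of the 2 overlapped. Of the 7 windows of ZEB1, 2 held an E-box, and the one printed first, at chr10:31318966-31319265 on the plus strand, held 3. The window of ZEB2 at chr2:144520070-144520369 on the minus strand held 0. E-box matches are in capitals.
ZEB1: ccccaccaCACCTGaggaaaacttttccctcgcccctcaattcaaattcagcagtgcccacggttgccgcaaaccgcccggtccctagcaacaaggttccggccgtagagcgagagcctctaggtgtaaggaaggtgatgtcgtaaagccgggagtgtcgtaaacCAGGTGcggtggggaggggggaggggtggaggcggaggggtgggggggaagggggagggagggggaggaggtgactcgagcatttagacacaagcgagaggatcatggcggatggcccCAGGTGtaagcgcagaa
ZEB2: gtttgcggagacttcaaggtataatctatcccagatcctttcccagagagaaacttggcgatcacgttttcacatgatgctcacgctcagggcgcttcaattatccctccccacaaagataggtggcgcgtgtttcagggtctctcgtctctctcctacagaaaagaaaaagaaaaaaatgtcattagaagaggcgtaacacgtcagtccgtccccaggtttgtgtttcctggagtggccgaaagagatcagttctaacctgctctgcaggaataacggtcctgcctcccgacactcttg

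Of all 35116 windows of this length, 20.6% held an E-box, 0.635% held 3 or more and 7.71% held an AP-1 motif. The AP-1 motif was found in 1 of the 2 windows of CDH2 and in no window of ZEB1, ZEB2, VIM or FN1. The printed ZEB1 window was picked as the one with the most E-boxes.

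Values were FPKM, reads scaled to gene length and to the counted reads of the library. Levels compared between genes therefore depend on the length used for each gene. The libraries held 16603676 (L597R), 15665132 (WT) and 13294004 (P-Enter) counted reads, totals worked out from the values themselves along with the whole reads of each gene. BRAF stood at 9.59 FPKM in L597R, 4.41 in WT and 1.65 in P-Enter. Each group had 1 library, so differences could not be set against replicates and are given without p-values. The bounds printed after a ratio are its exact 95% limits from the reads of 2 libraries. They cover counting error only, compare libraries and not conditions, and treat copies made by polymerase chain reaction as independent molecules, which they are not. A change in RNA per cell cannot be told apart from a change in the share of cells that carry it.

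The members spanned a range from abundant structural transcripts to factors near the detection limit. VIM was the most abundant at 132 FPKM in L597R, 127 in WT and 130 in P-Enter, higher than 98.2% to 98.3% of the 14117 protein-coding genes listed. CDH2 followed at 8.56, 8.22 and 8.94 FPKM in the same order of libraries, and FN1 at 7.03, 6.99 and 6.60. ZEB1 stood at 4.79 FPKM in L597R, 3.33 in WT and 2.72 in P-Enter. ZEB2 lay below it at 1.68, 1.55 and 1.12, SNAI1 at 0.883, 0.936 and 1.01, and SNAI2 lowest at 0.404, 0.350 and 0.298. This order of the 7 genes was the same in all 3 libraries, but the counting intervals of ZEB2 (1.01 to 1.23 FPKM) and SNAI1 (0.643 to 1.52) overlapped in P-Enter, and so did those of SNAI1 and SNAI2 in L597R (0.571 to 1.30 and 0.253 to 0.611). The per-length level of ZEB1 was 2.86 times that of ZEB2 in L597R, 2.14 times in WT and 2.44 times in P-Enter. The lengths used were 8650 bases for ZEB1 and 26111 for ZEB2. By reads ZEB2 lay above ZEB1 in L597R (727 and 688), WT (636 and 451) and P-Enter (388 and 313). The order of these 2 genes thus depends on the lengths used. No replicate gives the spread between cultures for any of these levels.

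**Figure D1:**
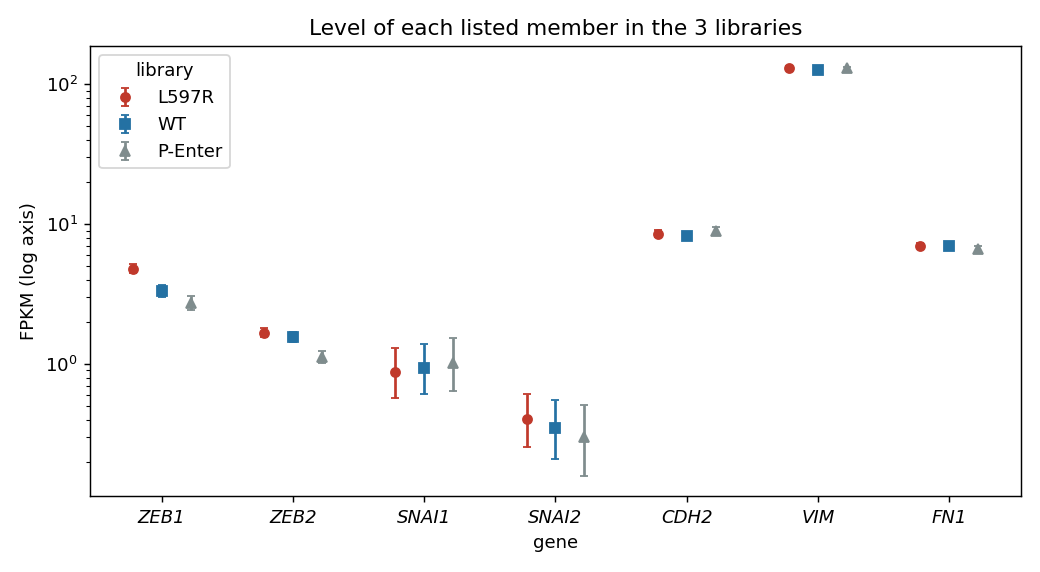
Level of the 7 listed members in FPKM on a log axis, by library (L597R, WT, P-Enter from left to right), with bars for the exact 95% Poisson interval of the reads. VIM stands above 127 FPKM in every library, ZEB1 is highest in L597R and lowest in P-Enter, and SNAI1 and SNAI2 have wide intervals.

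Cells with these mesenchymal transcripts had almost no E-cadherin transcript. CDH1 had 0 reads in L597R, 0 in WT and 1 in P-Enter, and a count of 0 allows up to 0.0297 FPKM in L597R and 0.0315 in WT (3 reads). The per-length level of CDH2 was 8.56 FPKM in L597R against that limit of 0.0297. Of the 20 epithelial junction and polarity genes looked up, 15 were listed, and 5 of those had a mean of at least 1 FPKM: JUP, TJP1, PATJ, OCLN and PKP3. EPCAM, CLDN3, DSP, ST14 and SPINT1 had no entry, nor did ESRP1, GRHL2, GRHL3, OVOL1, OVOL2 and ELF3, regulators that hold the epithelial state. Of 6 epithelial keratins looked up, 2 reached a mean of 1 FPKM, with KRT18 at 37.6, 36.6 and 34.3 FPKM and KRT7 at 26.9, 27.2 and 28.9 in L597R, WT and P-Enter. Processed copies of KRT18 share sequence with it, so its reads may be split among them. KRT8, the partner of KRT18, stood at 0.534, 0.584 and 0.623 FPKM, KRT19 and KRT14 lay under 0.1 FPKM and KRT5 had no entry. The annotated span of KRT8 overlaps that of KRT18 on the other strand, and the strand setting of the counting is not given. Whether this lowers the count of KRT8 was not tested, so its low value may not be its level in the cells. The label of a prostate epithelial line rests on the submitters: 7 of 8 luminal prostate markers had no entry, and of 4 basal markers KRT14 and KRT15 were listed.

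**Figure D2:**
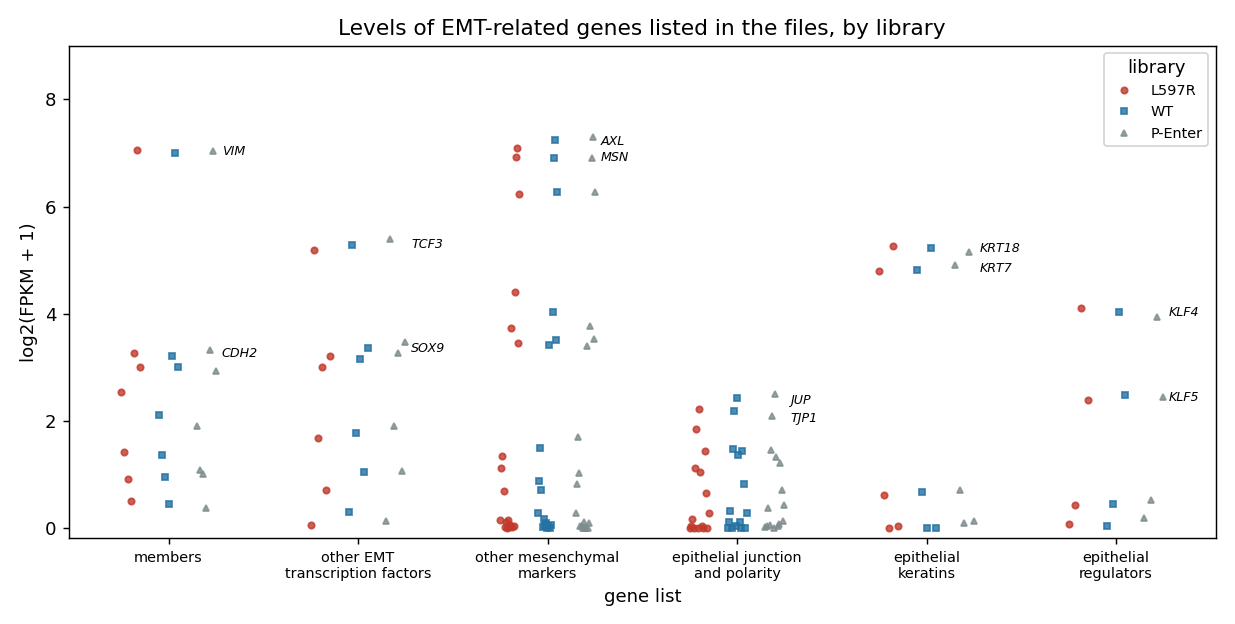
log2(FPKM + 1) of listed genes (1 point per gene and library) for the members and 5 related lists, with 2 of the most abundant genes of each list named. The epithelial junction and polarity genes lie low, with 10 of 15 under a mean of 1 FPKM, while VIM and AXL lie near the top of the plot.

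Between L597R and P-Enter, the 2 ZEB factors were higher, VIM, FN1 and CDH2 had ratios near 1, and SNAI1 and SNAI2 had too few reads to place. ZEB1 (ENSG00000148516, chromosome 10 from 31318495 to 31529814, plus strand) was counted at 688 reads in L597R, against 313 in P-Enter, a read ratio of 1.76 (1.54 to 2.02). ZEB2 (ENSG00000169554, chromosome 2 from 144364364 to 144524583, minus strand) had 727 and 388 reads, a ratio of 1.5002 (1.32 to 1.70). Both intervals lay above 1, and those of the other 5 listed members took in 1, so 2 of 7 were called higher and 0 lower. Among all 21377 genes with reads the interval lay above 1 for 13.9% and below 1 for 13.7%, and 0 members lay below. Among protein-coding genes with a mean of at least 1 FPKM it lay above 1 for 28.0% and below 1 for 25.7%, so such an interval was common in this pair; 5 members reach that mean, and ZEB1 and ZEB2 are 2 of them. On the log2(FPKM + 1) scale the difference was 0.64 for ZEB1, and 22 of 9358 protein-coding genes had a larger one. For ZEB2 it was 0.34, and 932 genes had a larger one. This scale gives less than the full change for genes near 1 FPKM.

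No member met the size rule of a log2(FPKM + 1) difference of at least 1 with a mean of at least 1 FPKM in any of the 3 comparisons. Of the 7 listed members 5 reached that mean, while SNAI1 and SNAI2 did not. In L597R against P-Enter 0.808% of 10639 genes met the rule, in WT against P-Enter 0.978% and in L597R against WT 0.724%, so a count of 0 among 5 is close to the background.

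Between WT and P-Enter, both ZEB factors were higher again, though the call of ZEB1 ended when GC content, length and level were regressed out (1.15, 0.993 to 1.33). The reads of ZEB1 numbered 451 in WT, against 313 in P-Enter, a ratio of 1.22 (1.06 to 1.42). ZEB2 had 636 and 388 reads (1.39, 1.22 to 1.58). The interval lay above 1 for these 2 of the 7 listed members, against 7.93% of 21354 genes with reads. For the 5 members with a mean of at least 1 FPKM the count was also 2, against 15.3% of protein-coding genes at that mean. It lay below 1 for 0 members, against 7.67% and 12.6%. On the log2(FPKM + 1) scale 252 of 9358 protein-coding genes had a larger difference than the 0.27 of ZEB2, and 528 a larger one than the 0.22 of ZEB1. The comparisons against P-Enter share that library, so a low P-Enter count would enter both.

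L597R and WT differed in ZEB1 and hardly in ZEB2. ZEB1, with 688 reads in L597R and 451 in WT, had a ratio of 1.44 (1.28 to 1.62); 97 of 9358 protein-coding genes had a larger difference. ZEB2 had 727 and 636 reads, a ratio of 1.08 (0.968 to 1.20). The ratio of ZEB1 was 1.33 times that of ZEB2 (exact interval 1.13 to 1.57), so the 2 factors differed from each other beyond counting error in this pair. In L597R against P-Enter the same quantity was 1.17 (0.974 to 1.41), and in WT against P-Enter it was 0.879 (0.722 to 1.07). VIM also had an interval above 1 in L597R against WT, at a ratio of 1.03 (1.01 to 1.06). These 2 of 7 members compare with 12.3% of 21556 genes with reads. Both are among the 5 members with a mean of at least 1 FPKM, a group in which the interval lay above 1 for 24.0% of protein-coding genes. The interval lay below 1 for 0 members, against 9.33% and 17.5%. Since BRAF was also higher in L597R than in WT, effects of its level and of the amino acid exchange cannot be told apart here.

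**Figure D3:**
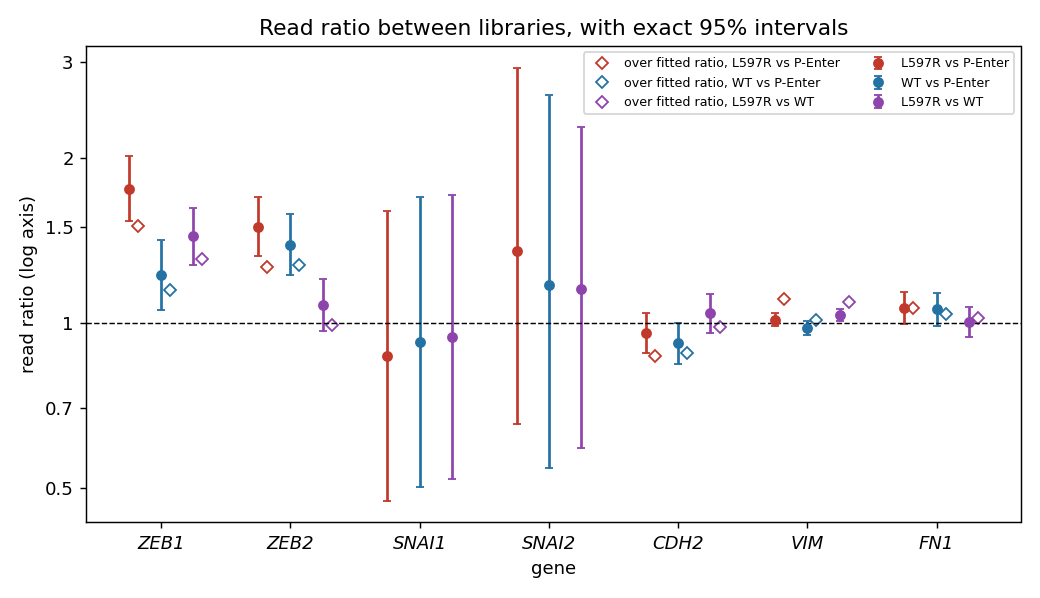
Read ratio of each listed member for the 3 comparisons on a log axis (filled points, bars for exact 95% intervals), and the same ratio divided by the one fitted from gene length, GC content and level (open diamonds, 5 members). ZEB1 and ZEB2 lie above 1 in both comparisons with P-Enter, VIM, FN1 and CDH2 close to it, and SNAI1 and SNAI2 have wide intervals that all take in 1.

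SNAI1 and SNAI2, the Snail and Slug repressors, had few reads, and no difference between libraries was detectable for either at this depth. SNAI1 (ENSG00000124216, chromosome 20 from 49982999 to 49988886, plus strand) had 25 reads in L597R, 25 in WT and 23 in P-Enter. Its ratio was 0.870 (0.474 to 1.605) for L597R against P-Enter, 0.922 (0.502 to 1.70) for WT against P-Enter, and in L597R against WT 0.943 (0.520 to 1.71). The upper bound in L597R against P-Enter lies below the ratio of ZEB1 in that pair. SNAI2 (ENSG00000019549, chromosome 8 from 48917604 to 48921740, minus strand) had 22, 18 and 13 reads in L597R, WT and P-Enter. Its ratio was 1.35 (0.653 to 2.93) for L597R against P-Enter, an interval that takes in both 1 and the ratio of ZEB1, and 1.18 (0.544 to 2.61) for WT against P-Enter. TWIST1 gives no limit, since no read count is listed for it.

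The 3 mesenchymal marker genes differed little between libraries, and their reads were deep enough to bound the difference. VIM (ENSG00000026025, chromosome 10 from 17228259 to 17237593) had 11319 reads in L597R, 10324 in WT and 8940 in P-Enter, with a ratio of 1.01 (0.986 to 1.04) in L597R against P-Enter, and 0.980 (0.953 to 1.01) for WT against P-Enter. FN1 (ENSG00000115414, chromosome 2 from 215360440 to 215436172) had 2009, 1886 and 1511 reads, with ratios of 1.06 (0.995 to 1.14) and 1.06 (0.989 to 1.13). CDH2 (ENSG00000170558, chromosome 18 from 27950966 to 28177446) had 1220, 1105 and 1020 reads, with ratios of 0.958 (0.881 to 1.04) and 0.919 (0.844 to 1.002). A difference as large as that of ZEB1 between L597R and P-Enter lies outside the counting interval of each of these genes. The ratio of ZEB1 in that pair was 1.74 times that of VIM (1.51 to 1.996) and 1.84 times that of CDH2 (1.57 to 2.16), and the ratio of ZEB2 was 1.48 times that of VIM (1.30 to 1.68). These contrasts use read ratios that were not divided by the fit from GC content, length and level. That fit itself differed between the genes, at 1.17 for ZEB1, 1.18 for ZEB2, 1.10 for CDH2 and 0.915 for VIM in that pair. The contrasts are therefore smaller once it is taken into account.

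Differences between the libraries followed GC content, and ZEB1 and ZEB2 have the lowest GC content of the 7 listed members. Across 9347 protein-coding genes the log2(FPKM + 1) difference between L597R and P-Enter had a Spearman correlation of -0.70 with GC content, against -0.46 for WT and P-Enter and -0.60 for L597R and WT; genes of 1 library share its preparation and are not replicates. The GC content of transcripts was 41.4% for ZEB1 and 41.5% for ZEB2, 43.8% for CDH2, 49.2% for FN1 and 52.7% for VIM. When length, GC content and level were regressed out over these genes, the fitted ratio in L597R against P-Enter was 1.17 at the values of ZEB1 and 1.18 at those of ZEB2. Divided by the fit, ZEB1 was 1.504 (1.31 to 1.72) and ZEB2 1.27 (1.12 to 1.44) in that pair. In WT against P-Enter ZEB1 was 1.15 (0.993 to 1.33), so its call ended, and ZEB2 was 1.28 (1.13 to 1.45). For L597R against WT ZEB1 was 1.31 (1.16 to 1.48) and ZEB2 0.991 (0.890 to 1.10).

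Among markers, CDH2 lay below the fit at 0.869 (0.799 to 0.945) in L597R against P-Enter and 0.882 (0.809 to 0.961) in WT against P-Enter. VIM lay above it at 1.11 (1.08 to 1.14) in L597R against P-Enter, and at 1.09 (1.07 to 1.12) in L597R against WT. After division by the fit, 16.5% of genes lay above and 16.7% below it in L597R against P-Enter, 9.94% and 10.3% in WT against P-Enter, and 13.6% and 12.9% in L597R against WT. How much of the difference in ZEB1 or ZEB2 goes with the GC trend was not tested beyond this fit.

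**Figure D4:**
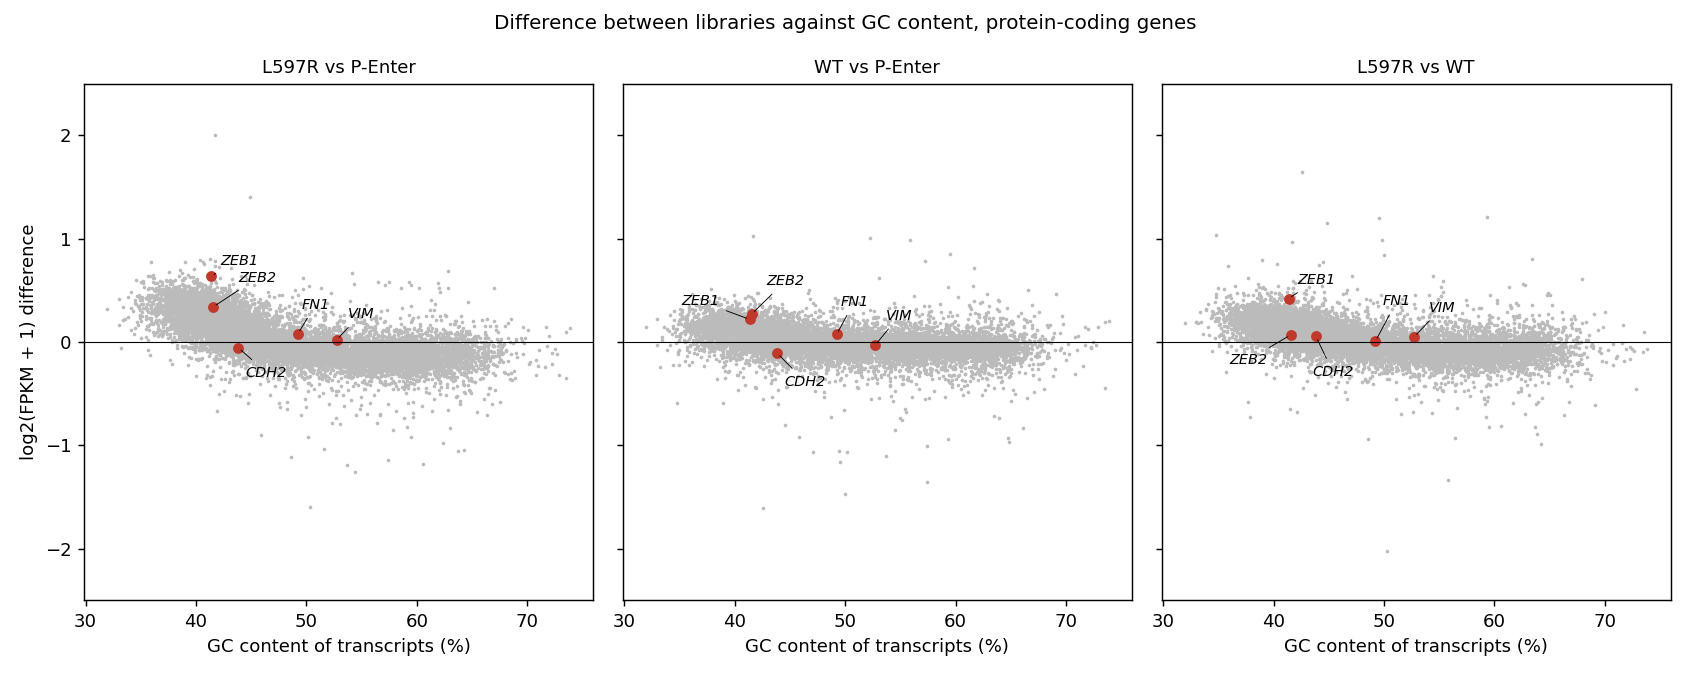
log2(FPKM + 1) difference of 9347 protein-coding genes (grey) against the GC content of their transcripts in percent, for the 3 comparisons, with 5 members in red. Genes of low GC content lie above 0, most so in L597R against P-Enter, where ZEB1 stands at the upper edge of the genes of its GC content and CDH2 at the lower side.

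Antisense genes overlap ZEB1, ZEB2, CDH2 and VIM, and the strand setting of the counting is not given in the sources used here, so their reads cannot be told apart with certainty. ZEB1-AS1 had 51 reads in L597R, 71 in WT and 46 in P-Enter. Unlike ZEB1, it was highest in WT, but its interval for WT against P-Enter took in 1 (1.31, 0.891 to 1.94). For L597R against WT its ratio was 0.678 (0.463 to 0.985). ZEB2-AS1 had 1, 0 and 0 reads, VIM-AS1 had 16, 12 and 17, and the antisense gene over CDH2 (ENSG00000227279) had 1 in each library.

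Other EMT transcription factors did not go with the ZEB factors. Of 12 looked up, 7 were listed and 5 had a mean of at least 1 FPKM; all 5 lay below P-Enter in L597R and in WT, with an interval below 1 for 3 in L597R and for 1 in WT. Of all protein-coding genes with that mean, 25.7% and 12.6% had an interval below 1 in these pairs. TCF3, which encodes E proteins that pair with TWIST1, stood at 35.5 FPKM in L597R, 37.9 in WT and 41.2 in P-Enter (L597R against P-Enter 0.862, 0.822 to 0.904). SOX9 stood at 8.20, 9.27 and 10.1 FPKM (0.810, 0.717 to 0.915) and FOXC2 at 6.98, 7.88 and 8.64 (0.808, 0.692 to 0.943). The interval lay above 1 for 0 of the 5. The median difference of the 5 was -0.23 on the log2 scale in L597R against P-Enter, -0.12 in WT against P-Enter and -0.11 in L597R against WT, beside -0.01, -0.00 and 0.01 over all genes tested. The GC content was 62.2% for TCF3 and 62.1% for FOXC2, and divided by the fit TCF3 (0.968, 0.924 to 1.015) and FOXC2 (0.909, 0.779 to 1.06) were no longer called in L597R against P-Enter, nor was TCF3 in WT against P-Enter, while SOX9 was (0.856, 0.758 to 0.967). The list median after the regression was -0.13, -0.07 and -0.07 in the same order.

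Further mesenchymal genes had members in both directions. Of 22 looked up, 19 were listed and 8 had a mean of at least 1 FPKM, of which 3 lay above and 5 below P-Enter in L597R, with an interval above 1 for 2 and below 1 for 3, against 28.0% and 25.7% of protein-coding genes. The receptor AXL was lower in L597R at 136 FPKM against 155 in P-Enter (0.876, 0.853 to 0.900), but not when divided by the fit (0.996, 0.970 to 1.02). MSN, which links actin to the membrane, stood at 121 in L597R and 119 in P-Enter, and the hyaluronan receptor CD44 at 74.5 and 76.7. CALD1, which encodes the actin-binding protein caldesmon, and LOX, which crosslinks collagen, were named after their values had been seen. CALD1 stood at 20.1, 15.2 and 12.5 FPKM in L597R, WT and P-Enter, in the order of ZEB1 and with a ratio of 1.602 (1.51 to 1.70) for L597R against P-Enter. LOX stood at 12.3, 9.62 and 9.53 FPKM (1.29, 1.18 to 1.42). Divided by the fit, CALD1 was 1.47 (1.39 to 1.56) and LOX 1.14 (1.03 to 1.25) in that pair. Collagen genes typical of fibroblasts were at or near 0, with COL1A1 at 0.00669 FPKM in L597R, 0.00709 in WT and 0.0167 in P-Enter.

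Of the junction and polarity genes with enough reads, most were lower in L597R by read ratio, and fewer were after division by the fit. Of the 5 with a mean of at least 1 FPKM, the interval lay below 1 for 4 and above 1 for 1 in L597R against P-Enter, and below 1 for 4 in L597R against WT. The shares of protein-coding genes below 1 in these pairs were 25.7% and 17.5%. Divided by the fit, JUP (0.883, 0.750 to 1.04) and PKP3 (0.767, 0.543 to 1.08) were no longer called in L597R against P-Enter, while OCLN (0.565, 0.470 to 0.678) and TJP1 (0.736, 0.648 to 0.836) were; in L597R against WT the call of JUP ended (0.895, 0.763 to 1.05). In WT against P-Enter it lay below 1 for 0 and above 1 for 1. TJP1, the tight junction scaffold ZO-1, stood at 2.60 FPKM in L597R, 3.55 in WT and 3.23 in P-Enter, with a ratio of 0.804 (0.708 to 0.913) for L597R against P-Enter, and of 0.731 (0.648 to 0.824) for L597R against WT. JUP, which encodes plakoglobin, stood at 3.63, 4.35 and 4.64 FPKM. OCLN stood at 1.18, 1.77 and 1.73 FPKM, but its copy OCLNP1 shares sequence with it and had 8, 5 and 2 reads. PATJ, a polarity scaffold, went the other way at 1.70, 1.70 and 1.32 FPKM. The list median was -0.28 in L597R against P-Enter, 0.04 in WT against P-Enter and -0.32 in L597R against WT on the log2 scale, and -0.19, 0.06 and -0.28 after the regression.

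Receptors for fibronectin and the TGF-beta pathway, a known inducer of EMT factors, held members in both directions. ITGAV, an integrin chain that binds fibronectin, stood at 14.6 FPKM in L597R, 11.5 in WT and 9.76 in P-Enter (L597R against P-Enter 1.498, 1.39 to 1.62), and ITGB1 at 100.1, 83.9 and 76.6 (1.31, 1.28 to 1.33). Divided by the fit these ratios were 1.18 (1.10 to 1.27) and 1.09 (1.06 to 1.11). ITGA5, which pairs with ITGB1, stood at 9.86, 10.3 and 10.5 FPKM, and SDC4 at 53.0, 57.8 and 60.0. Of 9 TGF-beta genes with a mean of at least 1 FPKM, the interval lay above 1 for 4 and below 1 for 2 in L597R against P-Enter, beside 28.0% and 25.7% of protein-coding genes. Their median log2 difference was 0.11, and -0.11 after the regression, so its direction turned. The ligand TGFB1 stood at 57.7, 60.4 and 61.3 FPKM and the signal transducer SMAD3 at 19.4, 21.1 and 23.2, both with a read ratio below 1 in L597R against P-Enter. Divided by the fit, TGFB1 turned to 1.07 (1.01 to 1.12), and SMAD3 stayed below at 0.905 (0.861 to 0.951). The receptor TGFBR2 stood at 7.25, 7.25 and 7.79 FPKM and the co-receptor TGFBR3 at 7.39, 6.39 and 6.16.

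**Figure D5:**
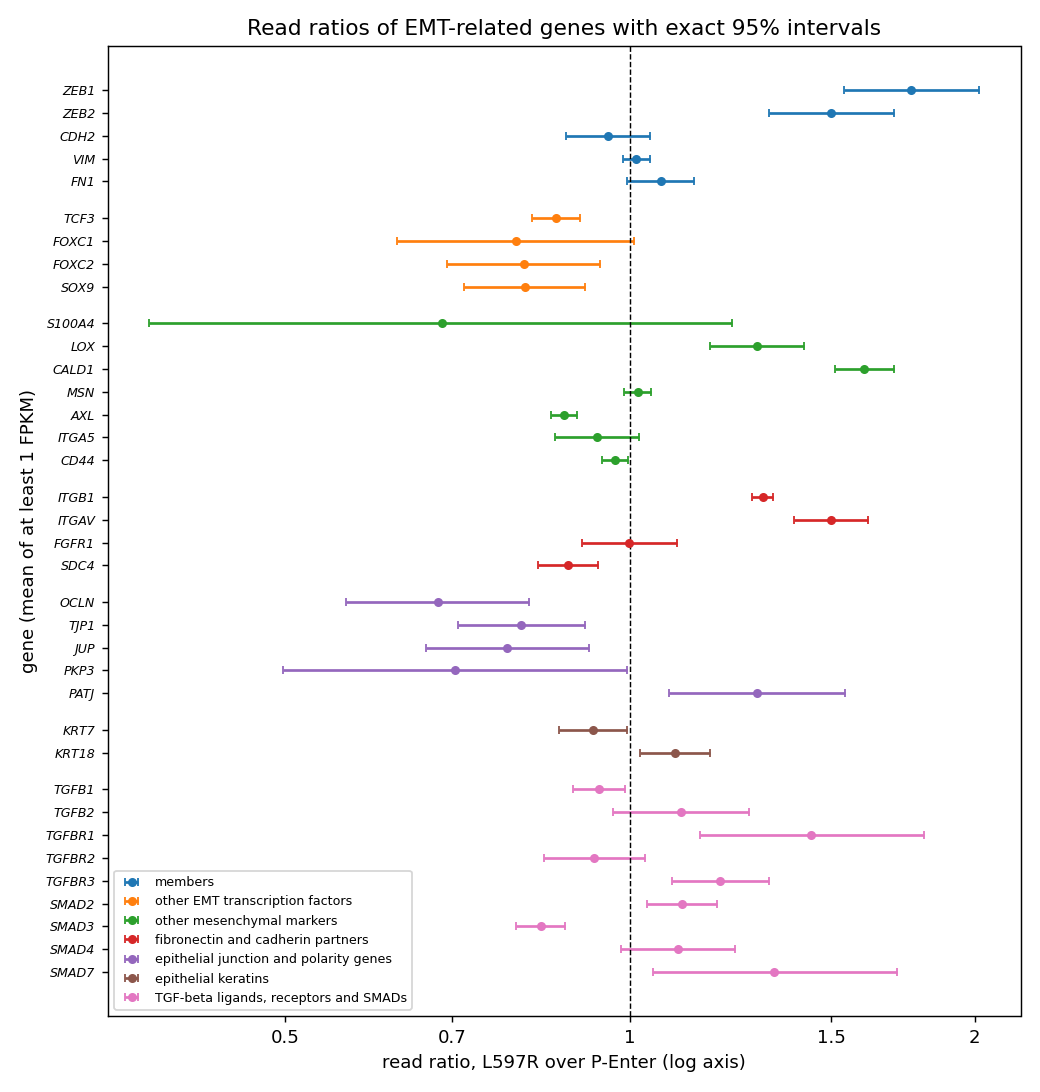
Read ratio of L597R over P-Enter on a log axis, with exact 95% intervals, for genes of 7 lists with a mean of at least 1 FPKM. ZEB1 (1.76) and CALD1 (1.602) stand furthest to the right, the junction genes OCLN, TJP1, JUP and PKP3 lie below 1, and ITGA5, in 2 lists, is drawn once.

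The genes most like ZEB1 and ZEB2 across the 3 libraries were found by the largest gap between centred log2(FPKM + 1) values among 6166 protein-coding genes with a mean of at least 5 FPKM. With 3 libraries such likeness is easily met: 18 genes lay within 0.05 of ZEB1 and 112 within 0.05 of ZEB2. Nearest to ZEB1 was PLOD2, a lysyl hydroxylase of collagen, at 86.0 FPKM in L597R, 63.9 in WT and 55.5 in P-Enter (largest gap 0.011). CAPZA2, an actin capping protein, and UPF3B, a factor of nonsense-mediated decay, came next. Nearest to ZEB2 was the repressor REST at 7.44, 7.04 and 5.68 FPKM (0.0028), followed by KLF3 and TMEM87B.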

How the data were processed

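Per the file headers, the authors deposited FPKM per Ensembl gene, 1 library per group. The build was hg38/GRCh38, and HTSeq, Cufflinks, HISAT2 and Trimmomatic are named as tools, per the submitters' processing notes. Their versions, the strand setting and the annotation release are not given in the sources used here. Per the labels' protocols, a stranded mRNA kit was used. Symbols came from a gene name table (23330 matched), and type, length, position and GC content from GENCODE 29.

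Whole reads were recovered by finding the library total and the gene length (0.1 to 6 times that annotated) that gave whole numbers in all 3 libraries within 1e-05; this worked for 22713 genes (97.2%). Recovered reads summed to 100.6% of the total in each library; why they exceed it was not tested. Read ratios have Clopper-Pearson 95% intervals conditional on the sum of both counts. Ratios of ratios have exact conditional intervals. No test of conditions is possible and no count model was fitted. The regression used third-order polynomials of GC content, of log length and of the log of mean FPKM. Members and lists were chosen with earlier results of these data known. Named genes were the members and, per list, up to 4 of highest mean FPKM; exceptions are stated. Differences were taken on the log2(FPKM + 1) scale of the deposited values. Scripts were tested on simulated data. The software was scipy 1.17.1, matplotlib 3.10.9, pandas 2.3.3 and numpy 2.4.6 under Python 3.11.15. Some genes of the lists enter the counts and medians but are not reported here by name or drawn.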

Additional observations from a re-analysis of the deposited data

How the results depend on the processing

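No member met the size rule with pseudocounts of 0.1 or 5, without a filter, at a mean of at least 5 FPKM, after rescaling by the median ratio or on regression residuals. With a threshold of 1.5-fold, 1 member (ZEB1) met it in L597R against P-Enter and 0 in the other comparisons. Requiring an interval beyond 1.5-fold left 1 member in L597R against P-Enter (ZEB1), 0 in WT against P-Enter and 0 in L597R against WT. Against the ratio fitted by the regression, 4 members were called in L597R against P-Enter: ZEB1, ZEB2 and VIM above and CDH2 below. The count stayed at 2 in WT against P-Enter, but as ZEB2 above and CDH2 below, with ZEB1 no longer called, and at 2 in L597R against WT (ZEB1 and VIM). Rescaling by the median ratio (factors 0.993, 0.9995 and 1.01) brought the count in L597R against P-Enter to 3, with FN1 added, and left all 21 member differences within their counting intervals. A pseudocount of 5 moved 4 of 21 out of them, one of 0.1 moved 2, and regression residuals moved 6 of 15; no called difference changed sign. No paired analysis was possible because each group has 1 library, and no library could be left out. Depth limits SNAI1 and SNAI2, each with at most 25 reads a library.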

Other observations

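Genes linked to the EMT factors had calls in both directions by read ratio, which did not hold after division by the fit. Of 9 genes of corepressors and of enzymes linked to ZEB or SNAI factors, all had a mean of at least 1 FPKM. In L597R against P-Enter the interval of the read ratio lay above 1 for 3 and below 1 for 1. These counts stand beside 28.0% and 25.7% of protein-coding genes with that mean. HDAC2, a histone deacetylase, stood at 15.3 FPKM in L597R, 13.8 in WT and 12.8 in P-Enter; its read ratio for L597R against P-Enter was 1.19 (1.13 to 1.25), and 0.944 (0.898 to 0.992) when divided by the ratio fitted from GC content, length and level. HDAC1 stood at 46.0, 45.7 and 46.7, KDM1A at 24.6, 26.3 and 26.5 and LATS2 at 14.5 to 14.6 in the 3 libraries. ID1, an inhibitor of the E proteins, was lower in L597R at 177 FPKM, against 218 in WT and 216 in P-Enter (L597R against P-Enter 0.820, 0.783 to 0.859). Divided by the fit, ID1 was 0.935 (0.892 to 0.980) in that pair. ID2 stood at 1.25, 1.07 and 0.850 FPKM, and ID3 and ID4 had at most 5 reads in a library.

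Other intermediate filament genes and their linkers included LMNA, which encodes lamins, and PLEC, whose product plectin links vimentin to other structures. Both were lower in L597R than in P-Enter (read ratios 0.859, 0.837 to 0.881, and 0.894, 0.876 to 0.913). Divided by the fit, LMNA was 0.969 (0.944 to 0.994) and PLEC 0.952 (0.932 to 0.972). LMNB1 stood at 68.9, 69.8 and 69.7 FPKM in L597R, WT and P-Enter. Among catenins, the cytoplasmic partners of cadherins, CTNNA1 stood at 81.1, 75.7 and 78.3 FPKM, CTNNB1 at 33.3, 32.7 and 33.0 and CTNND1 at 0.487, 0.466 and 0.480. KLF4 and KLF5, the more abundant of the epithelial regulators, stood at 16.2, 15.4 and 14.2 FPKM and at 4.24, 4.58 and 4.42. In L597R against P-Enter the read ratio of KLF4 was 1.14 (1.03 to 1.26), and 1.26 (1.15 to 1.39) divided by the fit. That of KLF5 was 0.960 (0.798 to 1.16). The keratin gene KRT18 was at 1.10 (1.02 to 1.17), and at 1.23 (1.15 to 1.32) divided by the fit. KRT7 was at 0.929 (0.867 to 0.995), and at 1.05 (0.980 to 1.12) divided by the fit.

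Markers of fibroblasts, leukocytes and endothelial cells were at or near 0. The summed level was 0.0966 FPKM in L597R, 0.300 in WT and 0.219 in P-Enter for 5 listed fibroblast markers of 6, 0.110, 0.00696 and 0.162 for 2 listed leukocyte markers of 5, and 0.148, 0.0531 and 0.154 for 4 endothelial markers. The sums hide PDGFRA, with 0 reads in L597R, 9 in WT and 17 in P-Enter (L597R against P-Enter 0, 0 to 0.194). Intervals above 1 were met by COL3A1 in WT against P-Enter (12 and 2 reads) and PECAM1 in L597R against WT (14 and 4 reads). Of 5 neuroendocrine markers 3 were listed, with ENO2 at 7.64, 7.53 and 7.87 FPKM, SYP at 0.503, 0.596 and 0.892 (L597R against P-Enter 0.564, 0.373 to 0.848) and NCAM1 at no more than 0.0236.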
